A study of Homo sapiens with 20 samples.

Results

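The 46 zinc finger genes described here lie in the clusters of distal 19q13, the telomeric end of the long arm of human chromosome 19, on either side of ZNF544. ZNF544 was selected on its difference between the lines compared below, and the other members were chosen by gene name and position around it, so values of CD47- against WT are given as a description, without a test, for the members and for the genes between them. The 46 are members out of 60719 genes in the table. RNA sequencing was carried out on 20 libraries of Jurkat cells, which derive from a human T cell leukemia. Of these, 10 were WT Jurkat cells and 10 were JinB8 (CD47-), a somatic mutant of Jurkat that lacks CD47, the cell surface receptor of thrombospondin-1 (TSP1), and that is a single line. In each line 1 library was untreated at 1 h, and libraries of CD3+CD28, of CD3+CD28+TSP1 and of TSP1 were made at 1 h, 3 h and 6 h, 1 of each. CD3+CD28 means plates coated with anti-CD3 and, at 4 µg/mL, anti-CD28, which stimulate the T cell receptor and its co-receptor, and TSP1 was used at 1 µg/mL in serum-free HITES medium. All groups share the Jurkat background, and any other difference between JinB8 and its parent cannot be told apart from the loss of CD47. Each condition was sequenced once, so the p-values measure the spread between these libraries, which may be technical. For CD47- against WT, fitted with line alone, that spread also holds the differences between times and treatments. The same holds for each SD over the 10 libraries of a line.

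C2H2 zinc finger proteins bind DNA through arrays of fingers, and most genes of these clusters also encode a KRAB domain, which recruits the co-repressor TRIM28 and, through it, the histone methyltransferase SETDB1. The clusters arose by tandem duplication, so near neighbours often resemble each other in sequence. Some of the proteins silence transposable elements, and ZNF274 is known for binding the 3′ ends of other zinc finger genes and bringing SETDB1 there.

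The libraries held 16107921 to 31737616 estimated counts. CD47 mRNA stood at 253 to 372 CPM (counts scaled to effective library size) in WT and at 124 to 165 in CD47-, so the transcript was present in the mutant line. All 15 T cell markers were at 1 CPM or more in both lines, with summed levels of 2534 to 3453 CPM in WT and 2492 to 3595 in CD47-, and 0 of 6 myeloid markers reached it. The 5 B cell markers summed to 35.6 to 56.0 CPM in WT and 5.86 to 13.7 in CD47-, and the 6 fibroblast markers to 1.89 to 8.03 and 7.70 to 13.02; their part in the results was not tested. The CD47- library of CD3+CD28+TSP1 at 3 h stood apart: it was the shallowest, and it was the highest of its line at 21.8% and the lowest at 21.7% of the genes tested, against at most 11.9% and 13.5% for any other CD47- library. It was also the highest CD47- library for 15 of the 40 members tested, so results that rest on it are given with and without it.

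The reference genome sequences before 4 consecutive members of the telomeric end are shown first. Whether they bear on the line difference was not tested. ZNF329 and ZNF544 are the pair that was near 0 in CD47-, ZNF274 lies between them and ZNF8 follows. Each is 250 bases of hg38 upstream of the RefSeq start, moved farther upstream where GENCODE places an untranslated region (the last base printed for ZNF544 is 321 bases before the RefSeq start), read along the gene's strand, with every CpG in capitals.
ZNF329, chr19:58150790-58151039, minus strand: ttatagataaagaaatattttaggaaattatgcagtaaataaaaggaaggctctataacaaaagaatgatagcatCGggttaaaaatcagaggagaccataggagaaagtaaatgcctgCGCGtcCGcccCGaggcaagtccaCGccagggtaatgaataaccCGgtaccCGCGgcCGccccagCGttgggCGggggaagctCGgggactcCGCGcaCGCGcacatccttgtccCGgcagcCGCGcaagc
ZNF274, chr19:58182779-58183028, plus strand: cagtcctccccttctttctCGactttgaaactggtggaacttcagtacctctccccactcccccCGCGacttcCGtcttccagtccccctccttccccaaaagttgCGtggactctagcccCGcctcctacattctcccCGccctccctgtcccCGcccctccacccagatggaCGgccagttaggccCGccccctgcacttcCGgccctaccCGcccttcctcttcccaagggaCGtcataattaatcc
ZNF544, chr19:58228344-58228593, plus strand: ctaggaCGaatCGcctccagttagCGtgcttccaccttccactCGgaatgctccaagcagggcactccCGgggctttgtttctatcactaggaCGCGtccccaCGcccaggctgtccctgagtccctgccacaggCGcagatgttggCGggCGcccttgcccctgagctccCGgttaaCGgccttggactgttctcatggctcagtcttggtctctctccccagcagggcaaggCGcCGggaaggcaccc
ZNF8, chr19:58278705-58278954, plus strand: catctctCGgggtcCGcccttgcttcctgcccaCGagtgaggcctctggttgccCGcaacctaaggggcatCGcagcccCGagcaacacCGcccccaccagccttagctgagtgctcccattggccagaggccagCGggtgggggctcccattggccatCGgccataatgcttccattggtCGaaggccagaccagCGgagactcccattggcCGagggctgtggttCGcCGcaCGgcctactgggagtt
These stretches hold 20, 13, 15 and 15 CpG. None of the 4 is free of CpG. The equal counts of ZNF544 and ZNF8 come from unlike positions, since the stretch of ZNF544 lies farther from its RefSeq start. In the promoter windows described next, ZNF544 held 31 CpG and ZNF8 26.

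CpG and short motifs were then counted in RefSeq's promoter windows (GRCh38.p14, 250 bases before to 50 after the start), which matched 42 of the 46 members. Where a gene had several windows, only the one with the most CpG was kept, for the members and for all other genes. The CpG counts, ranks and motif shares below therefore describe the window richest in CpG of each gene. The RefSeq starts of the sequences above are those of these windows. The members' windows held 11 to 35 CpG with a median of 21.5, against a median of 16 over all 27305 promoters and 28 over the 10698 promoters of genes tested here. The windows of ZNF544 and ZNF329 held 31 and 28 CpG, which ranked them 6 and 10 from the top among the 37 tested members with a window. The letters of an ETS core (CCGGAAG on either strand) and of a CCAAT box (CCAAT on either strand) were frequent: 26 of 42 member windows held each, or 61.9%, against 11.1% and 34.9% of all promoters and 19.93% and 36.2% of those of tested genes. The 27 windows of ZNF genes in 19p12, another chromosome 19 cluster, held them in 81.5% and 96.3%, and had a median of 10 CpG. A GC box (GGGCGG on either strand) was in 28 member windows, or 66.7%, against 47.0% of all promoters and 73.2% of those of tested genes, and TATAAA on either strand was in 1, that of ZNF776, against 11.5% and 5.23%. None of these motifs contains another, and a match describes letters, not a bound site.

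For CD47- against WT, 2 members with ZNF274 between them were close to 0 in CD47- and the other 38 tested members lay between −0.58 and 0.92 on the log2 scale. ZNF544 (ENSG00000198131.14; chr19:58228594-58277495, plus strand), a KRAB zinc finger gene, stood in WT at 11.8 CPM untreated at 1 h, at 12.6, 10.1 and 11.1 with CD3+CD28, CD3+CD28+TSP1 and TSP1 at 1 h, at 12.3, 13.9 and 17.03 at 3 h and at 16.2, 15.4 and 14.9 at 6 h. In CD47- it was counted 1 time untreated, 3, 0 and 5 times at 1 h, 3, 1 and 1 times at 3 h and 0 times in all 3 libraries of 6 h. No CD47- library came near a WT library: the highest held 0.204 CPM and the lowest WT library 10.1. Summed over the 10 libraries of each line this is 3195 counts against 14, a ratio of 235 with a counting interval of 140 to 430 (95%, exact; counting error only), and the fitted log2 fold change was -7.74 ± 0.32 (SE). A count of 0 allows a level of up to 3 counts in a library, or 0.101 to 0.156 CPM over the CD47- libraries.

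ZNF329 (ENSG00000181894.15; chr19:58126248-58155110, minus strand) showed the same contrast towards the centromere. Its WT libraries held 7.12 CPM untreated, 8.03, 5.76 and 7.52 at 1 h, 8.56, 7.72 and 9.39 at 3 h and 5.54, 4.90 and 5.31 at 6 h in the same order of treatments. In CD47- it was counted 4 times untreated, 1, 0 and 0 times at 1 h, 4, 2 and 3 times at 3 h and 1, 0 and 3 times at 6 h. The sums were 1614 counts in WT and 18 in CD47-, a ratio of 92.2 with a counting interval of 58.2 to 156, and the fitted log2 fold change was -6.45 ± 0.32. The fitted values of both genes depend on the prior count of the fit, since most CD47- libraries held 0 to 3 counts. Their SE were calculated back from these values and the test statistic. Here they are narrower than the counting error, which the counting intervals give.

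ZNF274 (chr19:58183029-58213562), which starts between them, was present in both lines: its lowest, median and highest levels were 12.9, 24.04 and 29.2 CPM in WT and 19.92, 25.6 and 30.2 in CD47-, and the log2 fold change was 0.18 ± 0.14. ZNF8 (chr19:58278955-58302791), the next member beyond ZNF544 and a KRAB zinc finger gene, stood at 32.99, 35.8 and 43.02 CPM in WT and 47.4, 51.5 and 63.2 in CD47-, with no overlap and with CD47- higher by 0.54 ± 0.07. The member between the pair and the member beyond it were thus both present in every CD47- library. ZSCAN18, the tested gene next to ZNF329 on its centromeric side, encodes a SCAN domain zinc finger protein and was at 13.2 ± 2.13 CPM in WT and 23.5 ± 2.64 in CD47- (SD, n = 10 each), a log2 fold change of 0.83 ± 0.09.

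**Figure D1:**
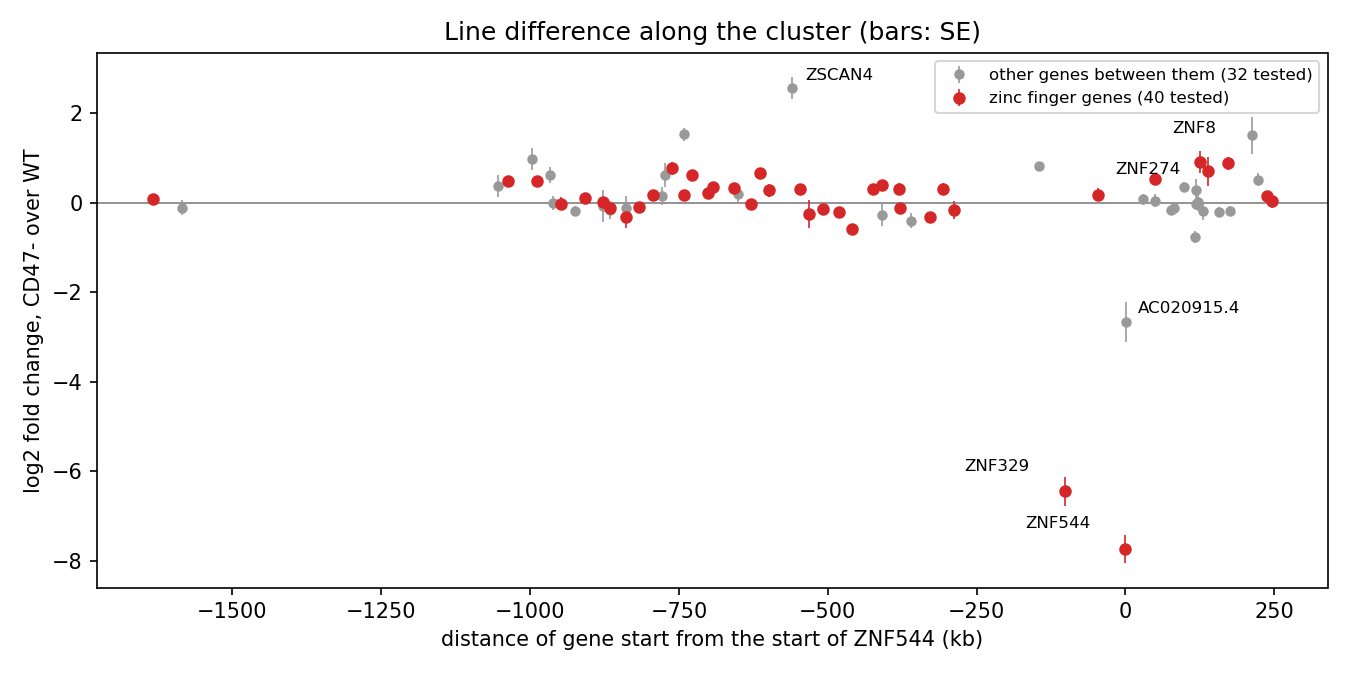
Fitted log2 fold change of CD47- over WT (SE bars) against the distance of each gene's start from that of ZNF544 in kb, for 40 zinc finger genes (red) and 32 other tested genes between them (grey). ZNF544 and ZNF329 sit at −7.74 and −6.45, and the other 38 zinc finger genes lie between −0.58 and 0.92.

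**Figure D2:**
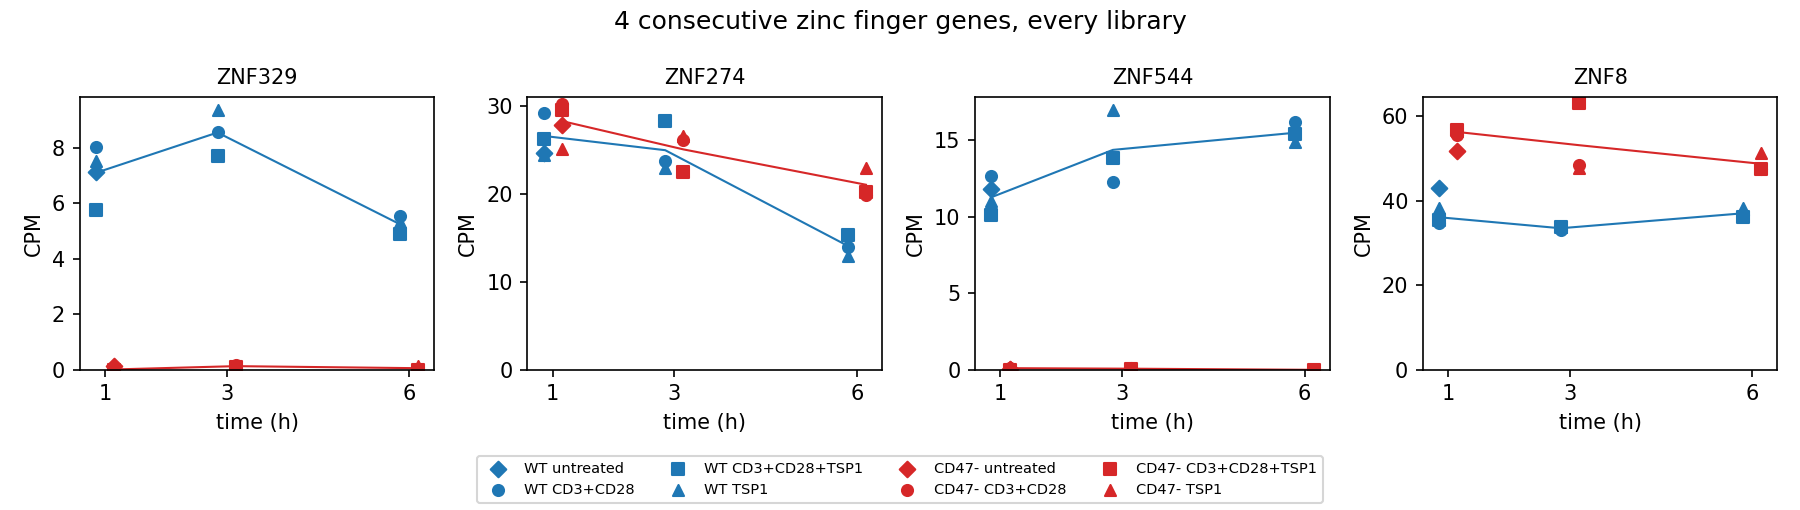
CPM of ZNF329, ZNF274, ZNF544 and ZNF8 against time in every library, WT in blue and CD47- in red, with 1 symbol a treatment and lines through the mean of the 3 treated libraries at each time. The CD47- points of ZNF329 and ZNF544 lie at the axis, while those of ZNF274 and ZNF8 are among or above the WT points.

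A low-count filter left 40 of the 46 members for the fits. The 6 others were ZNF471, ZNF470, ZNF835, ZNF606, ZNF135 and ZNF132, none of which passed 119 counts summed over a line, and ZNF835 was at 0 in all 20 libraries. Their windows held 20 to 34 CpG where one was listed. The 40 tested members had a median log2 fold change of 0.17 between the lines (all 16327 genes tested, −0.01), with 26 above 0 and 14 below. As the members were chosen around a gene picked on this contrast, no count of calls is given for them here and nothing is read from these values.

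The libraries of the lines did not overlap at 10 of the 40, against 11.5% of all genes. Higher in every CD47- library were 7 (background 6.01%): ZNF264, ZNF772, ZNF773, ZNF134, ZNF551, ZNF8 and ZNF584, with log2 fold changes from 0.31 to 0.89. Lower in every CD47- library were 3 (5.48%): ZNF544, ZNF329 and ZNF586. ZNF584 stood at 10.8, 16.7 and 19.7 CPM (lowest, median, highest) in WT and 21.7, 31.1 and 36.4 in CD47-. ZNF586 stood at 36.3, 42.4 and 47.00 and 19.5, 30.2 and 32.96, a log2 fold change of -0.58 ± 0.09. The remaining 30 ranged from −0.33 to 0.92, where the highest value, that of ZNF497, belongs to a gene with a median of 1.39 CPM in WT and 2.38 in CD47-. Within the 10 pairs of the same treatment and time, 14 members were higher in CD47- in every pair, against 15.6% of all genes, and 5 lower, against 16.1%, the latter being ZNF776, ZNF586, ZNF417, ZNF329 and ZNF544.

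**Figure D3:**
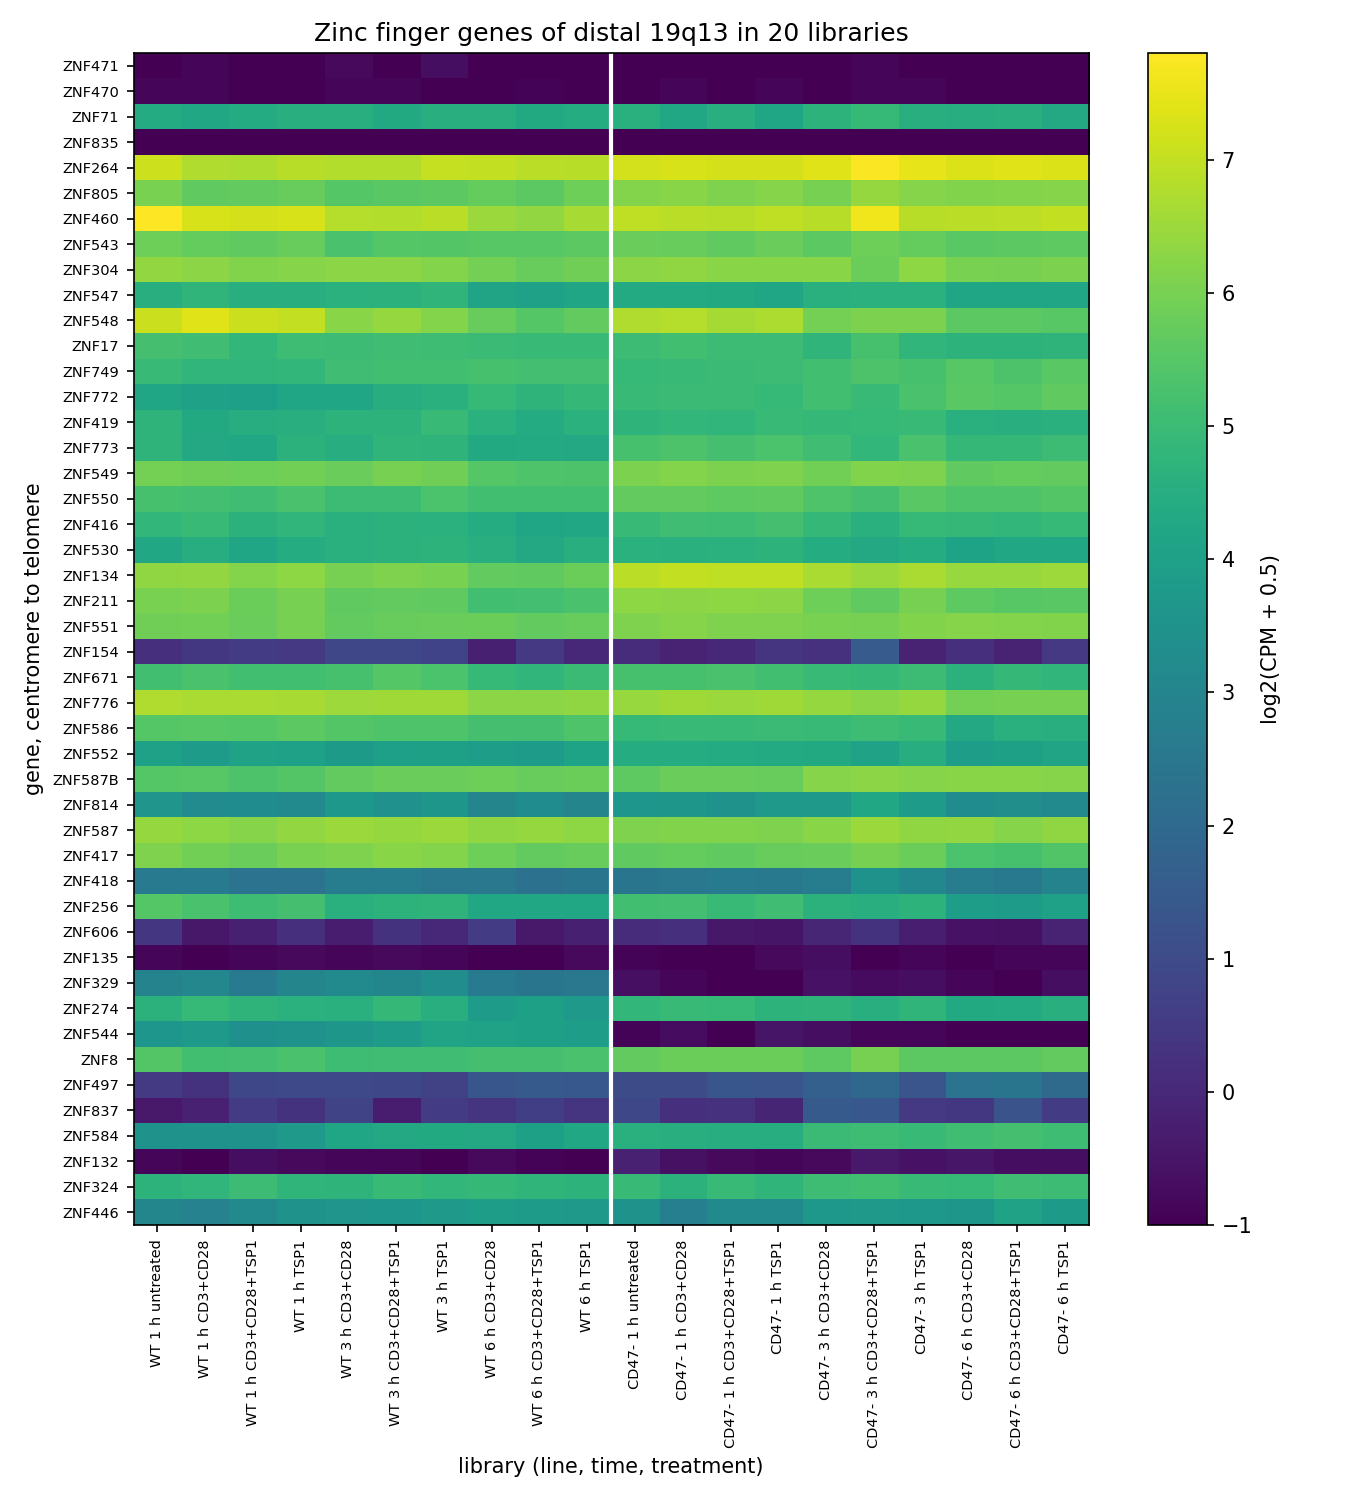
log2(CPM + 0.5) of all 46 zinc finger genes (rows, centromere to telomere) in the 20 libraries (columns, WT left of the white line and CD47- right of it). ZNF329 and ZNF544 darken only right of the line among the genes that are expressed in WT, and ZNF471, ZNF470, ZNF835, ZNF135 and ZNF132 are dark in both lines.

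Between the outermost members lie 90 other genes, of which 32 were tested, with a median log2 fold change of 0.01. A change of at least 2 on the log2 scale was found for 1 in each direction. AC020915.4 (chr19:58228914-58315183, plus strand), a readthrough model that begins inside ZNF544 and runs past ZNF8 into ERVK3-1, was at 2.45 ± 1.59 CPM in WT and 0.384 ± 0.348 in CD47- (SD, n = 10 each), or −2.66 ± 0.45. It shares exons with ZNF544, and the division of reads between them is an estimate. ERVK3-1 itself, where the readthrough ends, stood at 99.0 ± 8.79 and 88.0 ± 5.43 CPM. ZSCAN4 (chr19:57668935-57679152, plus strand), known as a gene of early embryo cells and telomere maintenance, had 115 counts over the WT libraries and 696 over the CD47- libraries, a log2 fold change of 2.56 ± 0.25. Counting was not stated to use strand, so overlapping genes on opposite strands such as ZNF814 and ZNF587 cannot be fully told apart, and ZNF587, ZNF587B, ZNF814, ZNF417 and ZNF552 are near copies among which reads are uncertain.

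Elsewhere, 22 of 38 ZNF genes of 19p12 were tested and 5 of them differed by at least 2 on the log2 scale (1 lower and 4 higher in CD47-), as did 14 of 382 tested ZNF genes of other places (5 lower, 9 higher), 2 of the 40 members and 634 of all 16327. The medians were 0.08, 0.12, 0.17 and −0.01.

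ZNF544 mRNA in WT was divided by the authors' program over many isoforms. The isoform with the most counts, a transcript of 3010 bases without a defined coding sequence, took 26.8% ± 12.4 (SD, n = 10) of the gene's counts, and 1.39% to 44.7% in single libraries. The next, a coding transcript of 3547 bases, took 26.3% ± 10.6. Divided by transcript length, the first took 13.8% and the next 11.6%, below a coding transcript of 543 bases at 18.8% and a transcript of 218 bases without a defined coding sequence at 16.3%, so the order depends on the scale. The 14 CD47- counts were too few to divide.

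The mRNAs of the proteins that KRAB zinc finger proteins act through were examined on a list of 24 co-repressor genes that played no part in choosing the members. TRIM28 was at 204 ± 29.6 CPM in WT and 198 ± 45.3 in CD47-, with a log2 fold change of −0.04 ± 0.12 (edgeR, adjusted p = 0.821). It passed in 0 of 31 alternative settings. In the 4 pairs of 1 h TRIM28 was at −0.29 ± 0.11 (edgeR, adjusted p = 0.0517), and in the 6 pairs of 3 h and 6 h at 0.10 ± 0.13. SETDB1 was at 59.1 ± 7.11 and 68.3 ± 10.1 (0.21 ± 0.09, adjusted p = 0.0669), higher in 9 of 10 pairs, and passed in 10 of 31 alternative settings (adjusted p = 0.0213 with the replicate block and 0.00435 with time point as a covariate; range over the 31, 5.96e-04 to 0.578). Of the 24, 8 were higher and 7 lower in CD47-, where 40.4% of all genes were called (19.8% higher and 20.6% lower). With the replicate block of matched pairs 9 were higher and 9 lower, where 54.9% of all genes were called, and without a low-count filter 8 and 1, where 18.8% were. The furthest apart were TRIM24, a nuclear receptor co-regulator, at 60.9 ± 9.68 and 24.5 ± 6.47 CPM (−1.31 ± 0.14, adjusted p = 7.2e-08, lower in 10 of 10 pairs), and ATF7IP2, a relative of the SETDB1 partner ATF7IP, at 8.50 ± 0.909 and 21.0 ± 2.72 (1.302 ± 0.09, adjusted p = 3.5e-11, higher in 10 of 10). Of 8 DNA methylation genes, 1 was higher and 2 were lower. DNMT3B, a de novo DNA methyltransferase, was at 12.8 ± 2.67 and 21.0 ± 6.35 CPM (0.71 ± 0.16, adjusted p = 0.00106). It passed in 30 of 31 alternative settings, and not in the 4 pairs without activation (edgeR, adjusted p = 0.0692). HELLS, a remodeller needed for DNA methylation, was at 164 ± 48.2 and 82.3 ± 29.6 (−0.99 ± 0.19, adjusted p = 2.6e-04), and UHRF1, which brings DNMT1 to replicating DNA, at 153 ± 23.5 and 129 ± 10.9 (−0.25 ± 0.08, adjusted p = 0.0202, a call lost in 5 of 31 alternative settings). DNMT1 differed by −0.05 ± 0.11 (adjusted p = 0.756) and DNMT3A by 0.06 ± 0.08 (adjusted p = 0.547), and each passed in 1 of 31 alternative settings, the 4 pairs of 1 h. DNA methylation was not measured in these libraries.

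Time in culture moved members past the threshold in both lines. Values are log2 fold changes with their SE from 1 model of all 20 libraries, tested with edgeR's quasi-likelihood test. ZNF544 and ZNF329 averaged under 3 counts a library in CD47- and passed the low-count filter through WT. They are left out of every contrast that compares CD47- libraries, which leaves 38 members there. The WT contrasts keep both genes, and their p-values also draw on the CD47- libraries through the shared model. No untreated library was taken after 1 h, so time on the plate, in serum-free medium and under stimulation cannot be told apart. From 1 h to 6 h in WT, 20 of the 40 members were called, against 50.5% of all genes: 7 higher (background 25.7%) and 13 lower (24.8%). In CD47-, 26 of 38 were called, against 53% of all genes, 7 of them higher (26%) and 19 lower (27%). At 3 h the counts were 14 in WT (background 34.3%; 8 higher against 16.9%, 6 lower against 17.4%) and 20 in CD47- (38%; 11 higher against 18%, 9 lower against 20.1%). With each library left out, the 3 h counts ran from 7 to 17 in WT (background 25.55% to 43.3%) and from 11 to 21 in CD47- (28.1% to 37.9%). Without the CD47- library of CD3+CD28+TSP1 at 3 h the CD47- counts were 14 at 3 h (7 higher and 7 lower) and 29 at 6 h, against 37.4% and 58.9% of all genes in that fit, and 12 of the 20 calls at 3 h were kept. The shares lay on both sides of the background, and lower calls at 6 h in CD47- were the furthest from it. The distance from the background was not tested.

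The members lower at 6 h in both lines were 11, or 84.6% of the 13 in WT and 57.9% of the 19 in CD47-, where the shares over all genes called lower were 68.7% and 63.0%: ZNF134, ZNF211, ZNF256, ZNF274, ZNF304, ZNF416, ZNF548, ZNF549, ZNF586, ZNF671 and ZNF776. ZNF548, a KRAB zinc finger gene, stood in WT at 136 CPM untreated, at 165, 136 and 128 at 1 h (CD3+CD28, CD3+CD28+TSP1 and TSP1), at 74.5, 84.9 and 71.5 at 3 h and at 53.6, 44.7 and 51.6 at 6 h. In CD47- it stood at 107 untreated, then 112, 98.7 and 105, then 61.9, 66.2 and 66.7 and then 47.1, 47.8 and 45.2. In both lines every library of a later time was below every library of an earlier one, by -1.51 ± 0.10 in WT (edgeR, adjusted p = 3.4e-08) and -1.17 ± 0.10 in CD47- (adjusted p = 2.4e-07) from 1 h to 6 h.

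ZNF256, which encodes a KRAB protein able to bind TRIM28, stood at 38.1, 33.03 and 36.8 CPM at 1 h, 23.3, 25.3 and 25.7 at 3 h and 18.7, 18.6 and 18.5 at 6 h in WT. In CD47- the levels were 35.3, 30.7 and 33.9, then 24.5, 22.8 and 25.2 and then 14.4, 13.7 and 15.9. It fell by 0.95 ± 0.08 on the log2 scale in WT (edgeR, adjusted p = 3.1e-07) and by 1.184 ± 0.08 in CD47- (adjusted p = 3.9e-08), again with no overlap between times.
ZNF211 and ZNF134, which lie next to each other, both fell. ZNF211 was at 56.2 to 67.01 CPM at 1 h and 34.8 to 38.7 at 6 h in WT (-0.77 ± 0.08, edgeR adjusted p = 3.0e-06), and at 76.6 to 78.5 and 45.1 to 48.3 in CD47- (-0.73 ± 0.08, adjusted p = 3.7e-06). ZNF134 was at 70.9 to 82.7 and 49.9 to 55.6 in WT (-0.56 ± 0.07, adjusted p = 1.6e-05) and at 124 to 127 and 86.2 to 90.4 in CD47- (-0.51 ± 0.07, adjusted p = 2.8e-05). ZNF776 went from 100.4 to 102 at 1 h to 76.7 to 80.2 at 6 h in WT and from 88.7 to 93.9 at 1 h to 62.6 to 64.01 at 6 h in CD47- (-0.54 ± 0.05, adjusted p = 2.1e-06).

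The members higher at 6 h in both lines were 6, or 85.7% of the 7 in each, where the shares over all genes called higher were 69.0% and 68.3%: ZNF446, ZNF497, ZNF584, ZNF587B, ZNF749 and ZNF772. The 7 in WT include ZNF544, which was left out of the CD47- contrast and so could not be shared. ZNF584 was at 10.8, 10.8 and 12.99 CPM at 1 h, 17.99, 19.3 and 19.7 at 3 h and 19.6, 15.5 and 18.5 at 6 h in WT. In CD47- it was at 22.4, 21.7 and 21.9, then 31.4, 33.02 and 30.8 and then 34.3, 36.4 and 33.4. It was already higher at 3 h, by 0.72 ± 0.09 in WT (edgeR, adjusted p = 5.4e-05) and by 0.53 ± 0.09 in CD47- (adjusted p = 4.7e-04). ZNF587B rose from 39.9 to 45.1 CPM at 1 h to 51.5 to 54.7 at 3 h in WT (0.33 ± 0.06, adjusted p = 9.6e-04) and from 53.3 to 55.4 at 1 h to 73.5 to 77.04 at 3 h in CD47- (0.46 ± 0.06, adjusted p = 6.8e-05). ZNF749 rose from 27.2 to 28.2 at 1 h to 34.3 to 34.9 at 3 h in WT (0.32 ± 0.08, adjusted p = 0.00484). ZNF587B, ZNF587 and ZNF814 share reads, so this value holds for what the program assigned to ZNF587B.

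**Figure D4:**
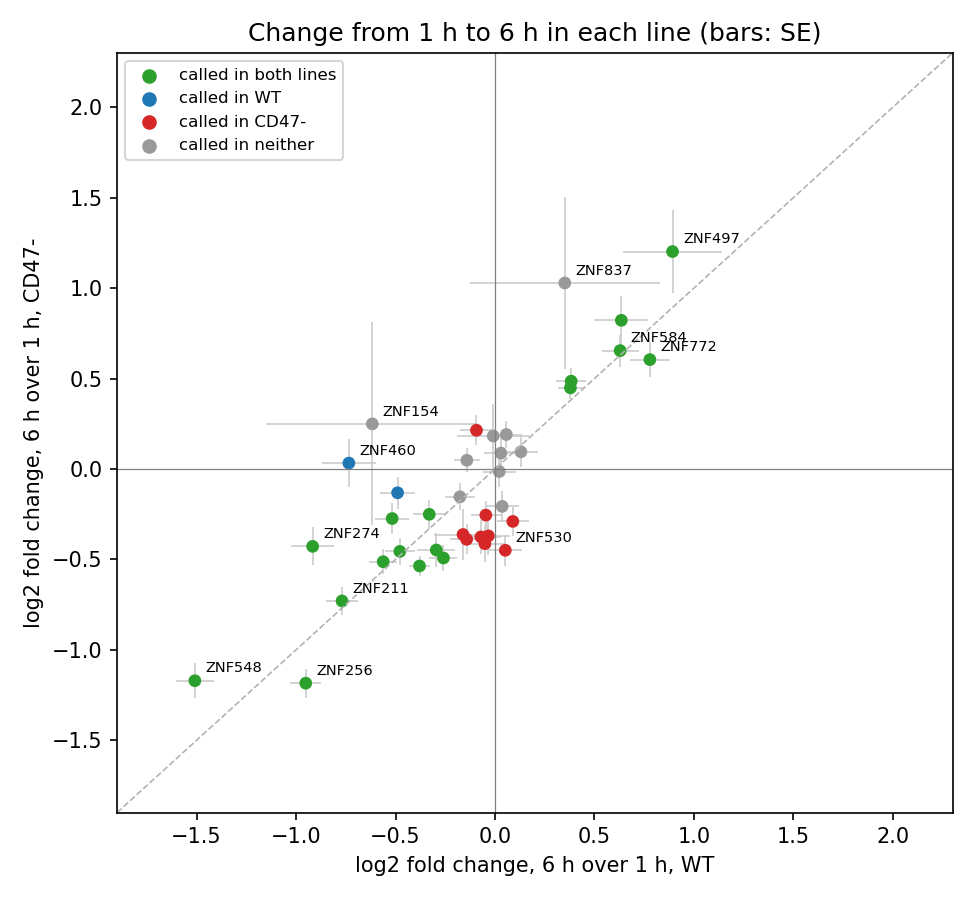
log2 fold change of 6 h over 1 h in WT (horizontal) and in CD47- (vertical) for 38 tested members with SE bars, coloured by the lines in which the change was called; ZNF544 and ZNF329, with 14 and 18 counts in CD47-, are left out, and the dashed line marks equal change. Of the called members, 11 lie in the lower left and 6 in the upper right as called in both lines.

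**Figure D5:**
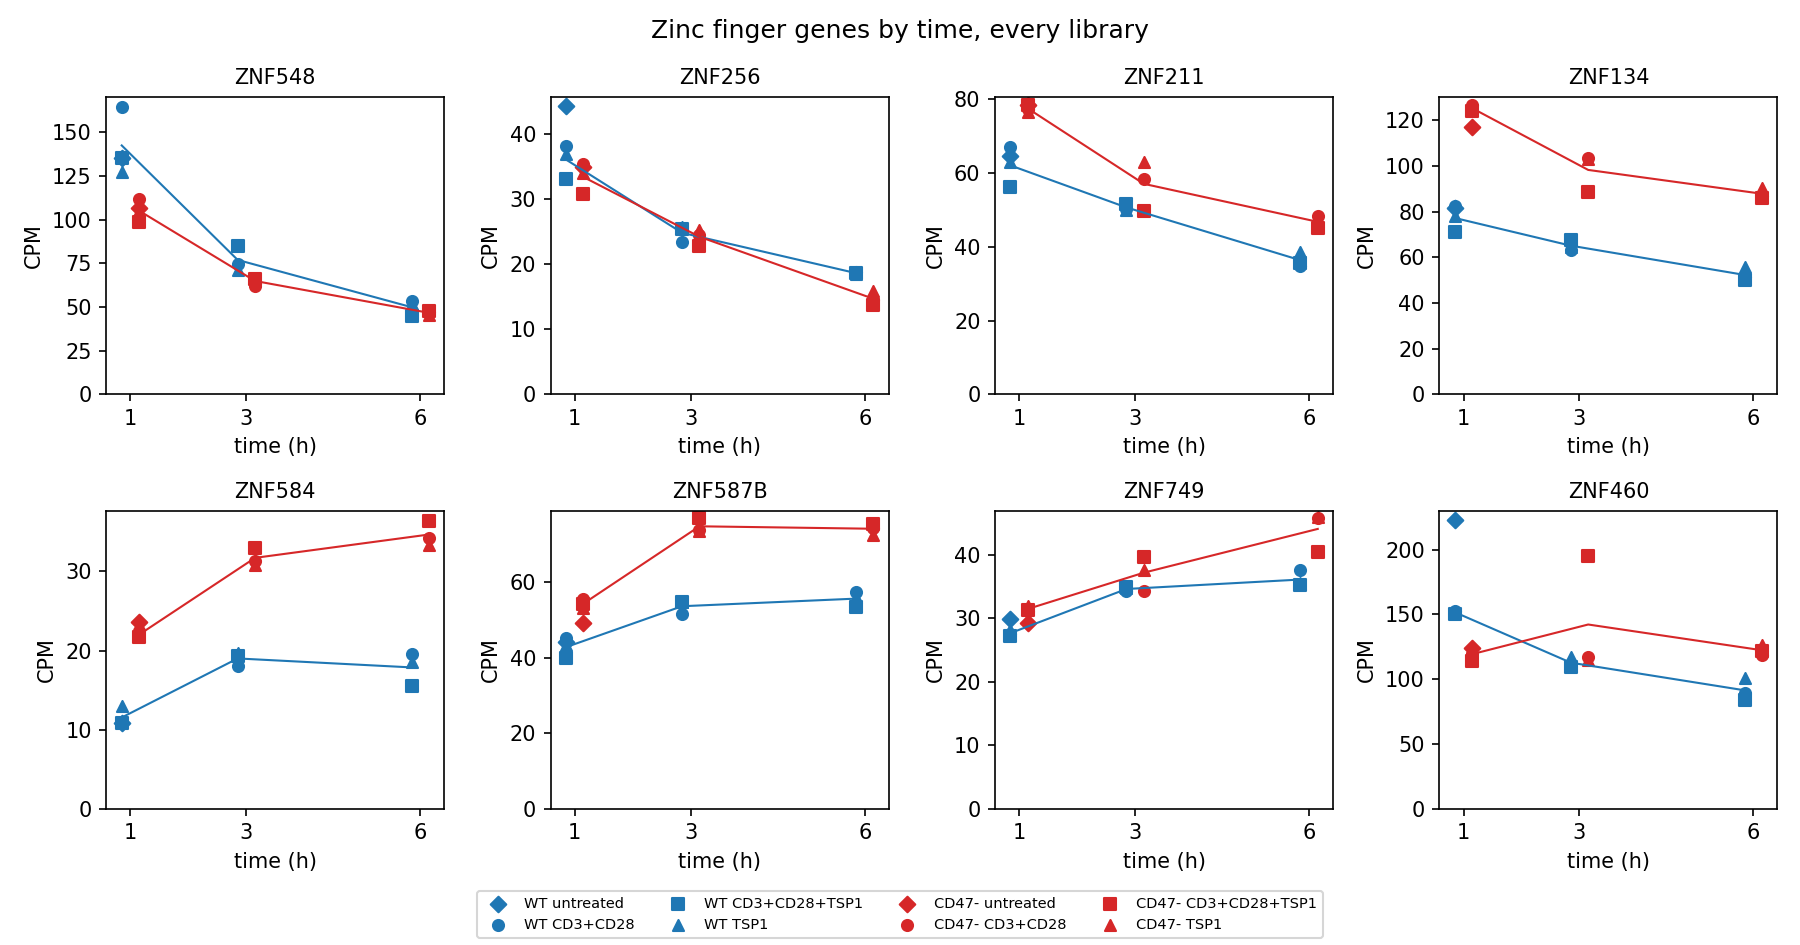
CPM against time in every library for 4 members that were lower at 6 h in both lines (ZNF548, ZNF256, ZNF211, ZNF134), 3 that were higher (ZNF584, ZNF587B, ZNF749) and ZNF460, WT in blue and CD47- in red; lines join the means of the 3 treated libraries. ZNF460 went down in WT, from 150.4 to 153 CPM in the treated libraries of 1 h to 83.6 to 101 at 6 h, while 8 of the 9 treated CD47- libraries lay between 114 and 127.

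ZNF544 and ZNF329 were also followed over time. ZNF544 rose in WT from 10.1 to 12.6 CPM at 1 h to 14.9 to 16.2 at 6 h without overlap, by 0.46 ± 0.17 (edgeR, adjusted p = 0.0429). That call was lost in 11 of 26 alternative settings, among them the replicate block of matched pairs (adjusted p = 0.0730). In CD47- the treated libraries held 8 counts at 1 h, 5 of them in the TSP1 library, and 0 at 6 h. Without that library the 3 counts of 1 h are no more than the limit that 0 allows, so no fold is given. ZNF329 in WT was at 5.76 to 8.03 CPM at 1 h, 7.72 to 9.39 at 3 h and 4.90 to 5.54 at 6 h, and neither change passed the test (-0.43 ± 0.19 at 6 h, adjusted p = 0.0825). At 6 h it passed in 4 of 26 alternative settings, with an adjusted p of 0.0409 without the CD47- library of CD3+CD28+TSP1 at 3 h, 0.0486 without the CD47- library of TSP1 at 6 h, 0.0367 in limma and 0.0140 in the WT libraries alone (range over the 26, 0.0140 to 0.233). In CD47- its treated libraries held 9 counts at 3 h and 1 at 1 h, and with the untreated library included the counts are 9 against 5, a ratio of 2.79 with a counting interval of 0.841 to 10.6.

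The difference between the lines in the time change was tested as an interaction. From 1 h to 6 h, 4 of 38 members were called, against 16.6% of all genes, and from 1 h to 3 h 1 member, against 4.28%. With the replicate block of matched pairs these counts were 2 (ZNF460 and ZNF530) and 0, against 13.3% and 2.08% of all genes. Without the CD47- library of CD3+CD28+TSP1 at 3 h they were 8 and 2 (26.1% and 6.4996% of all genes), and without the CD47- library of TSP1 at 6 h they were 0 and 0 (8.87% and 2.74%). ZNF460, a KRAB zinc finger gene, was at 153, 150.4 and 152 CPM at 1 h, 112, 109.7 and 117 at 3 h and 89.5, 83.6 and 101 at 6 h in WT. In CD47- it was at 119, 114 and 124, then 117, 195 and 115 and then 119, 122 and 127. The untreated libraries held 223 CPM in WT and 124 in CD47-. Treated WT libraries of each later time lay below those of the earlier one, whereas the treated CD47- libraries overlapped between times apart from CD3+CD28+TSP1 at 3 h, which was far above the rest, and the lines differed by 0.77 ± 0.19 at 6 h (edgeR, adjusted p = 0.0143; lost in 2 of 26 alternative settings, range 1.9e-07 to 0.0549).

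ZNF530 was at 22.03, 18.03 and 21.6 CPM at 1 h, 23.4, 24.8 and 25.5 at 3 h and 22.2, 19.3 and 22.4 at 6 h in WT. In CD47- it was at 23.7, 24.3 and 25.3, then 21.2, 19.5 and 21.3 and then 16.8, 18.5 and 18.3. At 3 h all treated WT libraries were above those of 1 h and all CD47- libraries below, a difference of -0.50 ± 0.12 (edgeR, adjusted p = 0.0336; lost in 15 of 26 alternative settings, range 0.0215 to 0.151), and at 6 h it was -0.50 ± 0.12 (adjusted p = 0.0124; lost in 3 of 26, range 0.00502 to 0.0628). ZNF274 fell by 0.92 ± 0.11 in WT, from 29.2, 26.2 and 24.4 CPM at 1 h to 13.97, 15.4 and 12.9 at 6 h, and by 0.43 ± 0.11 in CD47-, from 30.2, 29.6 and 25.1 to 19.92, 20.2 and 22.97. That difference was 0.49 ± 0.15 (adjusted p = 0.0403), and 0.067 with the replicate block, and the call was lost in 12 of 26 alternative settings (range of the adjusted p, 0.0197 to 0.120). ZNF419 differed by -0.38 ± 0.11 (adjusted p = 0.033; 0.065 with the replicate block and 0.0573 in DESeq2; lost in 15 of 26 alternative settings, range 0.0154 to 0.187), from 20.1 to 22.97 at 1 h to 20.9 to 24.3 at 6 h in WT and from 27.1 to 30.4 at 1 h to 22.8 to 23.8 at 6 h in CD47-.

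Treatment at matched times moved no member past the threshold. For CD3+CD28+TSP1 against TSP1, which asks what T cell receptor stimulation adds, edgeR called 0 members in WT (background 0.0919%) and 0 in CD47- (background 0%), with 1 and 3 members at an unadjusted p below 0.05, where 4.998% and 16.1% of all genes were. For CD3+CD28+TSP1 against CD3+CD28, which asks what TSP1 adds, 0 were called in either line (background 0% each), with 0 and 0 below an unadjusted 0.05 (2.24% and 10.8% of all genes). The differences between the lines in these contrasts also gave 0 (background 0% each), with 1 and 0 members below an unadjusted 0.05 (6.42% and 2.41% of all genes). DESeq2 and limma called 0 members in all 6 contrasts. The smallest p in CD3+CD28+TSP1 against TSP1 was that of ZNF419 in WT (−0.18 ± 0.08, adjusted p = 0.923) and of ZNF71 in CD47- (0.33 ± 0.09, adjusted p = 0.283), which was at 19.1, 23.2 and 17.6 CPM at 1 h, 25.5, 29.1 and 22.7 at 3 h and 21.7, 22.4 and 19.2 at 6 h with CD3+CD28, CD3+CD28+TSP1 and TSP1. ZNF274 in WT (0.22 ± 0.11, adjusted p = 1) and ZNF773 in CD47- (−0.24 ± 0.10, adjusted p = 0.286) came second. When TSP1 was added to CD3+CD28 the nearest were ZNF416 (−0.17 ± 0.09) and ZNF530 (−0.13 ± 0.09) in WT, both at an adjusted p of 1, and ZNF324 (0.18 ± 0.08) and ZNF304 (−0.17 ± 0.08) in CD47-, both at 0.459. ZNF304 is known for bringing TRIM28 to the INK4-ARF locus. In the differences between the lines, ZNF71 came first in both contrasts (0.47 ± 0.12, adjusted p = 0.705, and 0.25 ± 0.12, adjusted p = 0.966), followed by ZNF584 (0.25 ± 0.13, adjusted p = 0.705) and ZNF418 (0.45 ± 0.25, adjusted p = 0.966). A p that misses the threshold with 3 libraries a treatment does not show that levels were equal.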

How the data were processed

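RNA of 20 libraries (10 WT, 10 CD47-) was sequenced as paired reads. Per the paper's methods and the processing notes, the authors trimmed with Cutadapt 1.18, aligned with STAR 2.4.2a to hg38 and deposited RSEM 1.3.3 expected counts per gene and isoform; the strand setting is not given in the sources used here. The 2 columns per table of no sample were not used. Expected counts were rounded, filtered (edgeR filterByExpr, minimum count 10, total 15) and TMM-normalized, leaving 16327 genes. edgeR 4.0.16 (R 4.3.3) quasi-likelihood tests used line alone for CD47- against WT and, for time and treatment, line by treatment plus time within line, with Benjamini-Hochberg adjustment over all genes and a threshold of 0.05. The SE of an edgeR log2 fold change is its absolute value divided by the square root of the F statistic. It is approximate, most of all at low counts. CPM use effective library sizes. Positions are GENCODE v44 on hg38. DESeq2 1.42.0, limma 3.58.1 (voom with quantile normalization, as the authors used), other filters and factors, single libraries left out and a replicate block were alternatives. The paper's methods also name a batch correction with ComBat, which was not among these alternatives. The scripts were tested on simulated data. Same treatment and time pair the libraries: deviations of matched libraries correlated at 0.126 to 0.602 in all 10 pairs, though 2 of the 10 WT libraries correlated best with their own pair. No 2 libraries of a line agreed within counting noise. Depth was 16107921 to 31737616 counts per library, with 3 counts as the floor; intervals cover counting error only.

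The members and lists were chosen with earlier results of these data known. Named by rule were ZNF544, members without overlap and with a log2 difference of at least 1, up to 5 called members (otherwise 2) with the smallest p per contrast, neighbours at 2 or more, and TRIM28, SETDB1, DNMT1, DNMT3A, DNMT3B and UHRF1. Others were named after their values were seen, and ZNF544 and ZNF329 were then left out of the tests in CD47-, where they held 14 and 18 counts.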

Additional observations from a re-analysis of the deposited data

Results flagged for a closer look

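Among the libraries of each line, 40 groups of 10 were looked at for the 20 members named by rule, of which chance flags about 1 in 20. ZNF460 stood apart in both lines. The WT untreated library at 1 h held 223 CPM, against at most 153 in the other 9 WT libraries. The CD47- library of CD3+CD28+TSP1 at 3 h held 195 CPM, against at most 127 in the other 9. That CD47- library also stood apart over all genes, while the WT one was the highest of its line at 15.5% of genes.

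The change over time differed between the lines, by the test of the interaction, for 4 of 38 members at 6 h and 1 at 3 h, against 16.6% and 4.28% of all genes (CD47- change minus WT change, log2). These were ZNF530 (−0.50 at 6 h and −0.50 at 3 h), ZNF460 (0.77), ZNF419 (−0.38) and ZNF274 (0.49). Of 26 alternative settings, the call was lost in 3 for ZNF530 at 6 h and 15 at 3 h, 2 for ZNF460, 15 for ZNF419 and 12 for ZNF274. With the replicate block of matched pairs ZNF460 and ZNF530 passed at 6 h and none at 3 h, where the adjusted p of ZNF530 in edgeR was 0.0917.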

How the results depend on the processing

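For CD47- against WT, the median of the members was 0.12 to 0.22 over all settings and 0.14 to 0.19 with each library left out (log2). In the 4 pairs of 1 h, which hold fewer libraries and no later time, the 10 members without overlap became 26, where 45.2% of all genes did not overlap. With each library left out they were 10 to 11. ZNF544 and ZNF329 stayed between −8.48 and −6.10 under all settings.

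For the 20 members of 3 h against 1 h in CD47-, 12 were called when no gene was filtered out (14.8% of all genes then tested) and 11 to 21 with each library left out (28.1% to 37.9% of all genes), with 12 without CD47- CD3+CD28 at 1 h and 11 without CD47- CD3+CD28+TSP1 at 1 h. The 14 of WT at 3 h became 7 to 17 (25.55% to 43.3%), with 9 without WT CD3+CD28 or CD3+CD28+TSP1 at 1 h and 7 without WT TSP1 at 3 h. At 6 h the 20 of WT gave 18 to 22 (42.2% to 57.3%) and the 26 of CD47- 21 to 29 (44.1% to 58.9%). The 4 differences between the lines at 6 h became 2 with the replicate block (13.3%) and 0 to 8 with each library left out (8.87% to 26.1%). The single one at 3 h became 2 with DESeq2 (6.55%), 0 with the replicate block (2.08%) and 0 to 2 with each library left out (1.03% to 6.4996%). The causes were not tested. In the treatment contrasts the count stayed 0 in every setting. The block moved no other count given here by over 1.5 times. With ZNF544 and ZNF329 kept in, the CD47- counts were 27 at 6 h and 21 at 3 h and the differences 5 and 1. The 15 co-repressor genes called became 9 without a low-count filter (18.8% of all genes), 8 in the 6 activated pairs (24.8%) and 5 in the 4 pairs without activation (16.4%), and 12 to 15 with each library left out. The 3 DNA methylation genes became 1 in the 4 pairs without activation and 5 in the 4 pairs of 1 h (49.2%), and stayed 3 with each library left out. The values of TRIM28, DNMT1 and DNMT3A, near 0 in the main fit, changed sign: TRIM28 was 0.00636 in limma, 0.0983 in the 6 pairs of 3 h and 6 h and −0.0983 to 0.00919 with each library left out, DNMT1 0.0265, 0.0733 and −0.0848 to 0.0110, and DNMT3A −0.0189 in the 6 pairs of 3 h and 6 h. In the 4 pairs of 1 h TRIM28 was −0.287, DNMT1 −0.182 and DNMT3A 0.186. The share of the ZNF544 isoform with the most counts was 13.8% when divided by transcript length, where it no longer led. No value of a named member changed sign: of 1102 alternative values, 1040 kept their side of the threshold, 58 lost it and 4 gained it. Depth limits ZNF544 and ZNF329 in CD47-, where 3 counts were rarely passed, and ZNF154, ZNF497 and ZNF837, near 1 CPM.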
